A study of Rattus norvegicus with 6 samples.

Results

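This is an account of 30 rat genes, taken from 6 Affymetrix U34A rat arrays. The probe sets of these arrays each give a brightness, here called intensity, for a transcript or a group of alike transcripts. The genes were read by 32 chosen probe sets of the 8799. These 32 read lower in the ovary by postnatal day 4, and lower too after newborn ovaries had been kept in culture. Some of the genes had other probe sets that did not, as given below. The 32 probe sets were chosen by their intensities in all 3 groups of ovaries. A probe set was taken when it carried 1 gene symbol, when the lower of the 2 arrays of newborn ovary (P0) read at least 40, and when that lower reading was at least 1.5 times the highest of the 4 other arrays. Of 7006 non-control probe sets with 1 symbol, 3481 met the level and 39 of these, 1.12%, met the ratio as well. From the 39, 7 probe sets were set aside by name or by gene family, which left the 32.

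The arrays fell into 3 groups of 2. Cultured ovaries were taken at birth and held for 7 days on floating filters in a serum-free medium with insulin, transferrin, ascorbic acid and albumin. P4 ovaries were taken on postnatal day 4, and P0 ovaries on the day of birth. Each array held total RNA pooled from about 20 whole ovaries, with 2 independent pools in a group, and no strain or genotype is given in the sources used here. The design text of the series speaks of untreated and of progesterone-treated cultured ovaries. The labels of the 2 cultured arrays mention no progesterone, so both were treated as 1 condition, and whether either received it cannot be told. P0 and P4 arrays with the same replicate number share a chip ID batch (A or B), whereas each cultured array has its own, so culture and chip batch cannot be told apart. Culture and the longer time since birth, 7 days against 4 for P4 ovaries, cannot be told apart either.

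In the newborn rat ovary, germ cells lie in clusters surrounded by somatic cells, and over the following days the clusters break up and single oocytes are enclosed in primordial follicles. Whole-ovary RNA at this age mixes germ cells, pregranulosa cells, stroma, surface epithelium, vessels, blood and whatever tissue stays attached at dissection. In such bulk RNA, fewer cells of a type and less RNA per cell cannot be told apart.

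The 30 genes have mixed functions. They include 6 receptors, channels and secreted ligands, 6 intracellular signalling proteins, 3 RNA-binding proteins and transcription factors, 3 structural or chaperone proteins, 9 metabolic or lipid-handling proteins, 2 mitochondrial proteins and 1 mast cell protease. The mean P0 intensity ran from 41.9 to 1120 with a median of 106, where the median of all values in the table was 40. It lay under 100 for 16 probe sets, between 100 and 400 for 10, and at 400 or more for 6. Control probe sets for transcripts that a rat ovary does not contain reached 20 on any single array, and 10 of the 32 probe sets read under 20 on at least 1 array of cultured or P4 ovary. A fold difference given as "at least" has each such array set to 20.

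**Figure D1:**
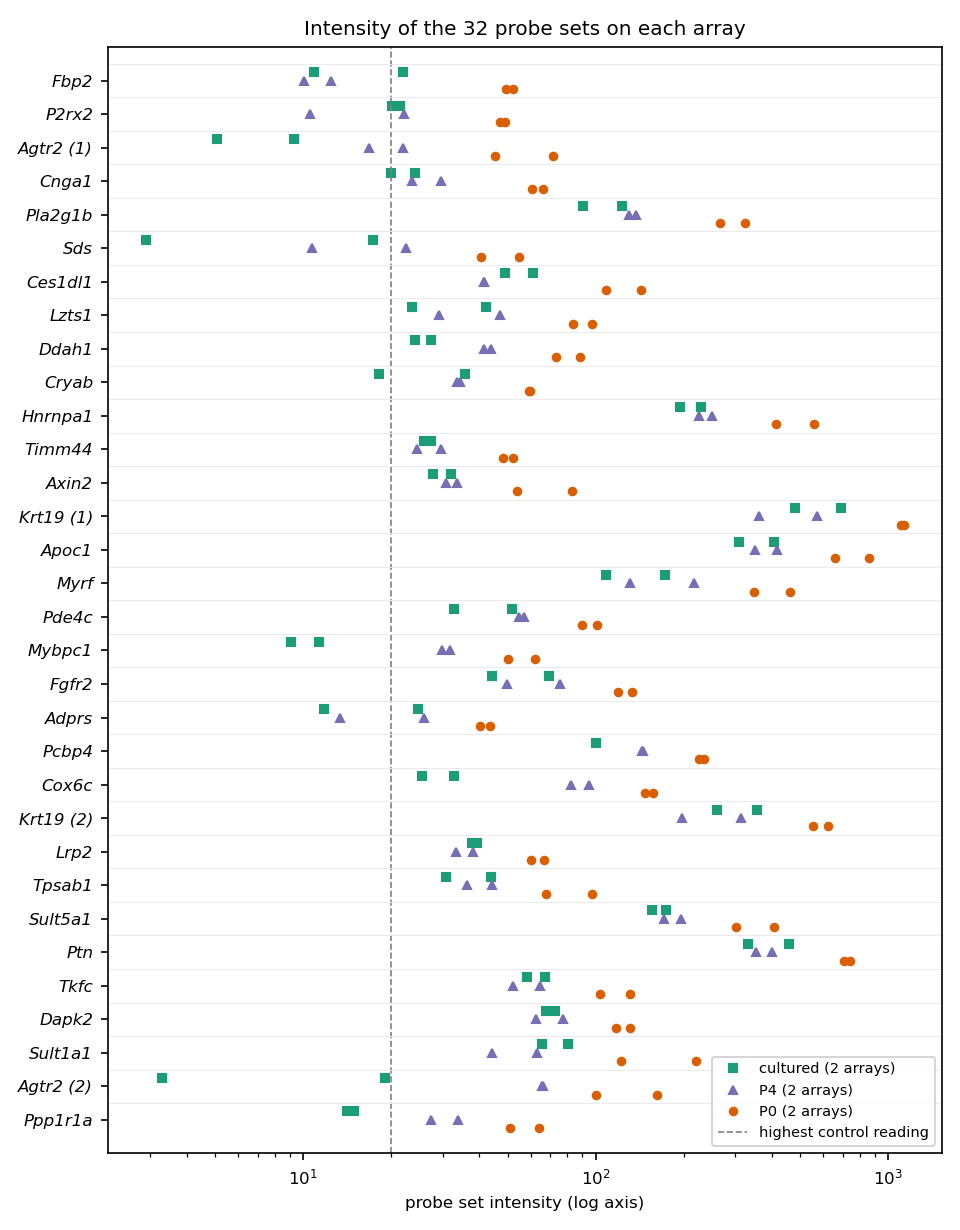
Intensity of each of the 32 probe sets (rows) on the 2 cultured, 2 P4 and 2 P0 arrays, on a log axis, with the highest control reading of 20 as a dashed line. The rows run from the largest ratio of the lower P0 array to the highest other array, 2.26 for Fbp2, to the smallest, 1.5 for Ppp1r1a, and numbers in brackets separate probe sets of the same gene.

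The members were chosen by a level and a ratio, and shared regulation was not tested. Upstream sequences are shown, as a description, for 4 genes of this set with signalling roles and a RefSeq promoter entry. They are Agtr2, the angiotensin II type 2 receptor, Axin2, a scaffold of the complex that degrades beta-catenin and itself a Wnt target gene, Ptn, the heparin-binding growth factor pleiotrophin, and Fgfr2, a fibroblast growth factor receptor. Each window holds the 250 bases before the annotated start, 5′ to 3′ on the gene's strand, from RefSeq on GRCr8. Capitals mark matches, on either strand, to the motifs described next. The windows are chrX:116914070-116914319 on the plus strand for Agtr2, chr10:94398535-94398784 on the plus strand for Axin2, chr4:66342333-66342582 on the minus strand for Ptn and chr1:194280915-194281164 on the minus strand for Fgfr2.
Agtr2: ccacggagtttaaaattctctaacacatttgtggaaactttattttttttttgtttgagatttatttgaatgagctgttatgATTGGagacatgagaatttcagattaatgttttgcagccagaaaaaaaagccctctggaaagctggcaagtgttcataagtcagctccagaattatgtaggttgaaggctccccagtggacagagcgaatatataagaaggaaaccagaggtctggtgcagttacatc
Axin2: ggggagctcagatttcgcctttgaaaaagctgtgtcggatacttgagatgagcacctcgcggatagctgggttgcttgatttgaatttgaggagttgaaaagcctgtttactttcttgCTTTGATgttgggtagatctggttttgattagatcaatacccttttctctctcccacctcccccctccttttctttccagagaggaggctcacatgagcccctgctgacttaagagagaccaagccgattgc
Ptn: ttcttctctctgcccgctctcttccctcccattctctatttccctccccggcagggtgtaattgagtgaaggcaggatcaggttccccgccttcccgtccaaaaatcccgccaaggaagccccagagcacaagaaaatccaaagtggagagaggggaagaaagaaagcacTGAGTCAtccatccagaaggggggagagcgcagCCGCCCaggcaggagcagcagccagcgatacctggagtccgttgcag
Fgfr2: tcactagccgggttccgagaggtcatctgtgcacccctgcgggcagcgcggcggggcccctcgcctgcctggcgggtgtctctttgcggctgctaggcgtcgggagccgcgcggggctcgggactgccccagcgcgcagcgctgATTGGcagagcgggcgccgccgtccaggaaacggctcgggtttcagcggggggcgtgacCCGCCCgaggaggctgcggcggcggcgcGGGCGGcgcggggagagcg

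RefSeq windows were matched for 19 of the 30 genes, and 9 motifs were searched on both strands, each as spelled here and with no overlap between them taken into account. The GC box GGGCGG lay in 10 of the 19 windows (52.6%) and in 30.5% of all 33469 windows of that length. The first listed window stood for each member gene. The share of all was taken over every listed window, without reduction to 1 a gene or to genes on the array, so these sets are unlike. The CCAAT box CCAAT lay in 8 (42.1%, against 34% of all), the AP-1 letters TGANTCA in 3 (15.8%, against 6.34%), the GATA letters AGATAA in 2 (10.5%, against 10.3%) and the TATA box TATAAA in 2 (10.5%, against 12.9%). The TCF/LEF letters ATCAAAG were found in 1 window, that of Axin2, and in 3.15% of all windows. None of the 19 windows held the CRE core TGACGTC, the E2F core TTTCCCG or the SF-1 core AAGGTCA, which lay in 2.8%, 2.98% and 3.99% of all. The median GC content of the 19 windows was 54.0%, and that of all windows 51.2%. These are descriptions of letters in a window and not binding sites. The TCF/LEF letters were added after Axin2 was seen among the members.

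Because the rule used the cultured, P4 and P0 readings themselves, the differences from P0 below are descriptions and carry no test. Among the receptors, Agtr2 is abundant in fetal tissues and falls away after birth in many of them. Its brighter probe set read 19.1 and 3.3 in culture and 65.7 and 66.3 at P4, against 99.9 and 162.4 at P0. The dimmer one read 9.3 and 5.1 in culture and 16.8 and 22.0 at P4, against 45.4 and 71.6 at P0. Both probe sets lay lower in culture and at P4 than at P0. On the dimmer one both cultured readings and 1 P4 reading were under 20, so cultured and P4 ovaries have no order there. On the brighter one cultured lay below P4 on each array, and the cultured ovaries were at least 6.37-fold lower than P0 and the P4 ovaries 1.93-fold lower.

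Fgfr2 carries signals between epithelium and mesenchyme in many organs. Its chosen probe set read 44.2 and 69.3 in culture and 49.6 and 75.3 at P4, against 119.0 and 133.4 at P0. Ptn was among the brightest members, at 455.8 and 330.4 in culture and 398.6 and 352.3 at P4, against 740.2 and 702.9 at P0. For both genes the cultured and P4 readings overlapped, and both lay about equally far below P0: Ptn was 1.86-fold lower in culture and 1.92-fold lower at P4. Lrp2, the large endocytic receptor megalin of absorptive epithelia, read 39.2 and 37.9 in culture and 38.2 and 33.2 at P4, against 66.6 and 60.3 at P0.

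A pair of ion channel genes had some of the largest ratios but low readings. P2rx2, an ATP-gated cation channel, read 20.2 and 21.5 in culture and 22.1 and 10.6 at P4, against 47.2 and 49.0 at P0. Cnga1, a cyclic nucleotide-gated channel known from photoreceptors, read 19.9 and 24.1 in culture and 23.5 and 29.7 at P4, against 60.4 and 65.9 at P0. The cultured and P4 readings of both channels lay close to the highest control reading of 20, with 1 cultured reading of Cnga1 and 1 P4 reading of P2rx2 below it.

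Among the intracellular signalling genes, Axin2 read 27.9 and 32 in culture and 33.6 and 30.8 at P4, against 53.7 and 83.0 at P0. The 4 cultured and P4 readings lay within 27.9 to 33.6, and the P0 arrays differed more. Ppp1r1a, an inhibitor of protein phosphatase 1 that is switched on by cyclic AMP signalling, read 14.9 and 14.1 in culture and 27.4 and 33.9 at P4, against 64.2 and 51.0 at P0. Pde4c, a phosphodiesterase that breaks down cyclic AMP, read 51.8 and 32.7 in culture and 56.9 and 54.7 at P4, against 100.8 and 89.7 at P0. For both genes the cultured arrays lay below both P4 arrays, an order also found in 24.5% of all probe sets tested below. Neither passed between cultured and P4 ovaries (limma adjusted p = 0.202 for Ppp1r1a and 0.602 for Pde4c). Both cultured readings of Ppp1r1a were under 20.

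Ddah1 degrades methylated arginines that inhibit nitric oxide synthases. It read 27.3 and 24.2 in culture and 43.7 and 41.6 at P4, against 88.6 and 73.3 at P0, a graded order with no overlap on the chosen probe set. A brighter Ddah1 probe set read 163.6 and 242.9 in culture and 208.2 and 179.2 at P4, against 380.3 and 285.1 at P0. There the cultured and P4 readings overlapped, so the graded order was not seen on both. The chosen Ddah1 probe set did not pass between cultured and P4 ovaries (limma adjusted p = 0.293). Dapk2, a calmodulin-dependent death-associated kinase, read 72.3 and 67.5 in culture and 62.7 and 77.1 at P4, against 117.7 and 130.7 at P0. Lzts1, a leucine zipper protein known as a candidate tumour suppressor, read 42.1 and 23.6 in culture and 29.2 and 47.1 at P4, against 83.8 and 97.3 at P0. Dapk2 and Lzts1 overlapped between cultured and P4 ovaries.

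The RNA-binding and transcription genes were bright. Hnrnpa1, an abundant nuclear protein in splicing, read 194.5 and 229.3 in culture and 250.1 and 224.5 at P4, against 555.4 and 411.9 at P0 on the chosen probe set. Myrf, a membrane-bound transcription factor named for its role in myelin-forming cells, read 172.9 and 108.4 in culture and 131.4 and 217.4 at P4, against 346.3 and 459.6 at P0. Pcbp4, a poly(C)-binding protein, read 100.4 and 99.9 in culture and 143.4 and 145.0 at P4, against 226.1 and 234.4 at P0. Replicates of Pcbp4 differed little, and its 3 groups stood in the order cultured, P4, P0 with no overlap. The place of P0 in that order was fixed by the rule. Between cultured and P4 ovaries Pcbp4 did not pass (limma adjusted p = 0.301).

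Krt19, a keratin of simple epithelia, was the brightest gene and was covered by a pair of chosen probe sets designed to the same sequence record. The brighter read 691.0 and 480.2 in culture and 361.7 and 571.2 at P4, against 1103.3 and 1131.1 at P0. The other read 355.8 and 259.9 in culture and 196.5 and 314.3 at P4, against 620.6 and 551.5 at P0. Both gave the same picture, 1.94-fold and 1.92-fold lower in culture and 2.46-fold and 2.35-fold lower at P4. Mybpc1, a myosin-binding protein of slow skeletal muscle, read 9.1 and 11.3 in culture and 31.8 and 29.8 at P4, against 62.0 and 50.2 at P0. Cryab, a small heat shock protein of lens and muscle, read 35.7 and 18.2 in culture and 33.7 and 34.3 at P4, against 59.4 and 59.1 at P0.

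The metabolic genes were the largest class, and several are best known from liver, muscle or pancreas. Fbp2, the muscle form of fructose-1,6-bisphosphatase, had the largest ratio of all. It read 21.9 and 10.9 in culture and 10.1 and 12.5 at P4, against 49.4 and 52.0 at P0, at least 2.42-fold lower in culture and at least 2.53-fold lower at P4. Sds, serine dehydratase, a liver enzyme that feeds gluconeogenesis, read 17.4 and 2.9 in culture and 10.7 and 22.4 at P4, against 40.6 and 54.5 at P0. Its probe set is of the kind that matches a sequence family, so its signal is uncertain. Pla2g1b, the secreted phospholipase A2 of the pancreas, was brighter, at 90.2 and 123.3 in culture and 130.3 and 137.8 at P4, against 264.9 and 322.8 at P0.

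Sulfotransferases, which attach sulfate to small molecules, were represented by a pair of genes. Sult1a1, which acts on phenols, read 80.3 and 65.6 in culture and 44.2 and 63.0 at P4, against 122.0 and 219.8 at P0, 2.26-fold lower in culture and 3.10-fold lower at P4. Sult5a1 read 156.0 and 174.3 in culture and 170.6 and 195.0 at P4, against 300.5 and 408.0 at P0. Sult1a1 and the carboxylesterase-like gene Ces1dl1 were the only members whose cultured arrays both lay above both P4 arrays. Ces1dl1 read 48.9 and 60.9 in culture and 41.5 on both P4 arrays, against 142.7 and 108.5 at P0, from a probe set designed under relaxed selection rules.

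Apoc1, an apolipoprotein of plasma lipoproteins, read 407.7 and 307.5 in culture and 351.3 and 415.9 at P4, against 659.3 and 855.9 at P0. Tkfc, a kinase in fructose breakdown, read 67.1 and 58.2 in culture and 64.7 and 52.1 at P4, against 103.4 and 131.1 at P0. Adprs, which removes ADP-ribose from serines, was the dimmest member, at 24.7 and 11.8 in culture and 13.4 and 25.8 at P4, against 43.5 and 40.2 at P0. Of these only Apoc1 stood far above the control readings in every group.

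Of the mitochondrial genes, Cox6c, a nuclear-encoded subunit of cytochrome c oxidase, was lowest in culture and intermediate at P4 on its chosen probe set. It read 25.5 and 32.7 in culture and 82.3 and 95.1 at P4, against 157.4 and 147.1 at P0, 5.27-fold lower in culture and 1.72-fold lower at P4. Timm44, part of the motor that pulls proteins into the mitochondrial matrix, read 27.3 and 26.0 in culture and 29.7 and 24.6 at P4, against 48.1 and 52.1 at P0. Tpsab1, a tryptase stored in mast cell granules, read 43.7 and 30.9 in culture and 44.1 and 36.4 at P4, against 67.7 and 96.8 at P0.

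Just inside the chosen ratio lay Ppp1r1a at 1.5, the brighter Agtr2 probe set at 1.51 and Sult1a1 at 1.52. Just outside it lay Rasl11b, a small GTPase of the Ras family, just under 1.5, with 64.5 and 14.3 in culture and 66.0 and 40.6 at P4, against 98.9 and 130.1 at P0. Next were Shank2, a synaptic scaffold, at 1.48 and Smpx, a small muscle protein, at 1.48. Shank2 read 27.7 and 28.1 in culture and 33.6 and 35.6 at P4, against 55.2 and 52.7 at P0. With a ratio of at least 2, the rule kept 4 probe sets (Fbp2, P2rx2, the dimmer Agtr2 and Cnga1), all of them with P0 means under 100. With quantile normalization of the arrays it kept 20 of the 32.

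Since the P0 and P4 arrays share chip ID batches by replicate number, the difference was also read within each batch, again as a description. On log2(intensity + 7.7), P4 minus P0 ran from -1.68 to -0.54 with a median of -0.90 in batch A, and from -1.69 to -0.50 with a median of -0.98 in batch B. Over all 6118 probe sets that passed a filter on dim signals, the medians were -0.07 and -0.01. The batches agreed closely for Cryab, at -0.70 and -0.67, and for Pcbp4, at -0.63 and -0.66. Other genes had wider gaps. P2rx2 gave -0.88 in batch A and -1.63 in batch B, Tpsab1 -0.54 and -1.24, and the brighter Agtr2 probe set -0.55 and -1.20.

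**Figure D2:**
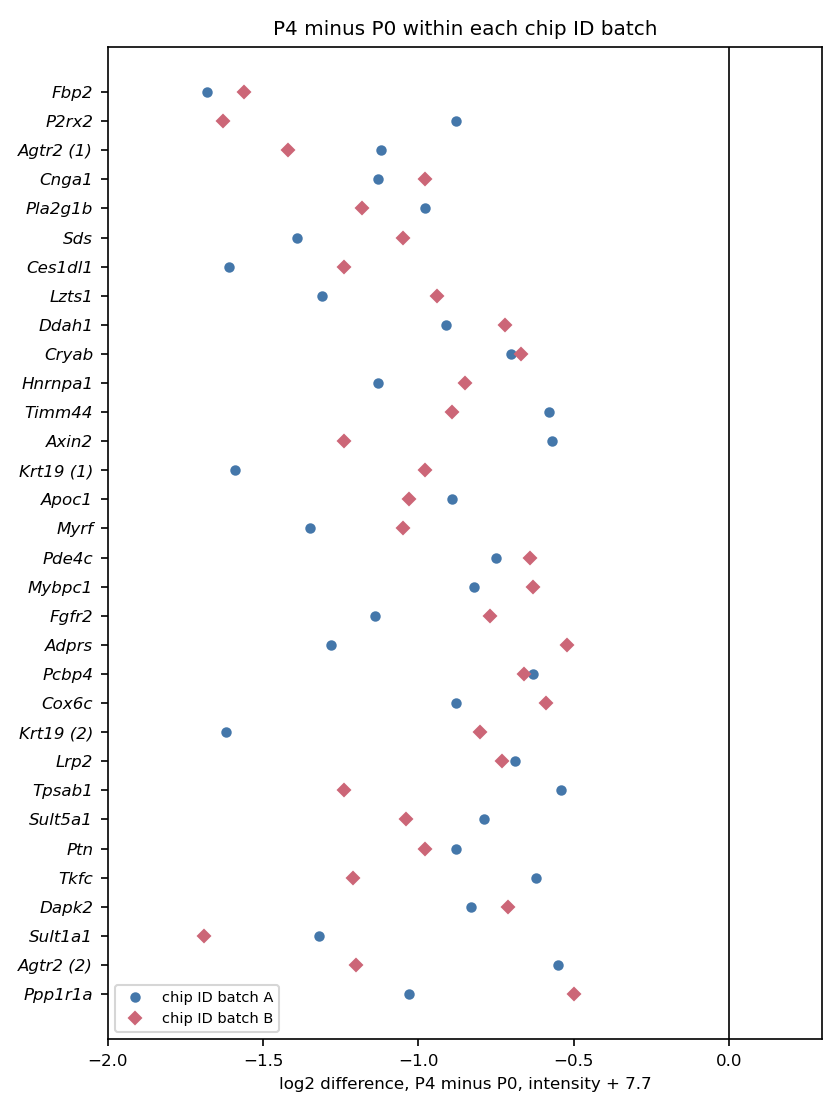
P4 minus P0 difference on log2(intensity + 7.7) for each of the 32 probe sets, from the pair of arrays in chip ID batch A (circles) and the pair in batch B (diamonds). Every point lies left of 0, between -1.69 and -0.50, as the choice of members requires.

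The P0 replicate 1 array stood apart on control probes, with the GAPDH 3′ control probe set at 1324.2, where P0 replicate 2 read 2233.5 and the other arrays 2162.3 to 2775.1, and the part of this in the members' values was not tested. Between the P0 arrays themselves the higher reading exceeded the lower by a median of 1.18 times and at most by 1.8 times, for Sult1a1. P0 replicate 2 was the higher array for 20 of the 32 probe sets and P0 replicate 1 for 12.

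The rule set no direction between cultured and P4 ovaries, but it held the readings of both below a limit set by P0. The test below therefore uses values that the rule had bounded, and the members' counts are read as a description. It asks whether these genes were lower after 7 days in culture than after 4 days in the animal. Culture, time since birth and chip batch cannot be told apart in it. A linear model over all 6118 probe sets (limma, two-sided, Benjamini-Hochberg adjusted p under 0.05) called 170 of them, 2.78%, with 0.621% lower and 2.16% higher in culture. All 32 member probe sets were in the fit, and 2 passed, both lower in culture. Cox6c fell to 29.1 ± 5.09 in culture against 88.7 ± 9.05 at P4 (SD, n = 2 each; log2 change -1.39, SE 0.23, limma adjusted p = 0.00935). The brighter Agtr2 probe set averaged 11.2 ± 11.2 in culture and 66.0 ± 0.424 at P4 (SD, n = 2 each; log2 change -2.10, SE 0.40, limma adjusted p = 0.0231), with both cultured readings under 20, which bounds the difference at no less than 3.3-fold lower in culture. The dimmer Agtr2 probe set did not pass (limma adjusted p = 0.256).

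Neither call held on every subset of arrays. Cox6c did not pass without P4 replicate 2 (adjusted p = 0.0646) or without cultured replicate 1 (adjusted p = 0.0872), and Agtr2 did not pass without P4 replicate 1, P4 replicate 2 or cultured replicate 2 (adjusted p = 0.0801, 0.0646 and 0.118), nor with quantile normalization (adjusted p = 0.0599). Without P4 replicate 2 no member passed.

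For most members, the cultured and P4 readings could not be separated. The median log2 change of the 32 was -0.13, where that of all tested probe sets was -0.04. The cultured arrays both lay below both P4 arrays for 9 of the 32 (28.1%, with 24.5% among all tested probe sets) and both above for 2 (6.25%, with 19.1% among all), and the groups overlapped for 21. The first share is near that of the whole table. Mybpc1 came nearest to the threshold among those that missed it (limma adjusted p = 0.0681). Both its cultured readings were under 20, as were those of Ppp1r1a (limma adjusted p = 0.202), so cultured ovaries were at least 1.54-fold lower than P4 for Mybpc1 and at least 1.53-fold lower for Ppp1r1a. In the other direction, Sult1a1 had a log2 change of 0.41 (SE 0.30, limma adjusted p = 0.646) and Ces1dl1 one of 0.34 (SE 0.24, limma adjusted p = 0.614). The median standard error over all tested probe sets and comparisons was 0.259, and 2 arrays in a group limit what can be separated.

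**Figure D3:**
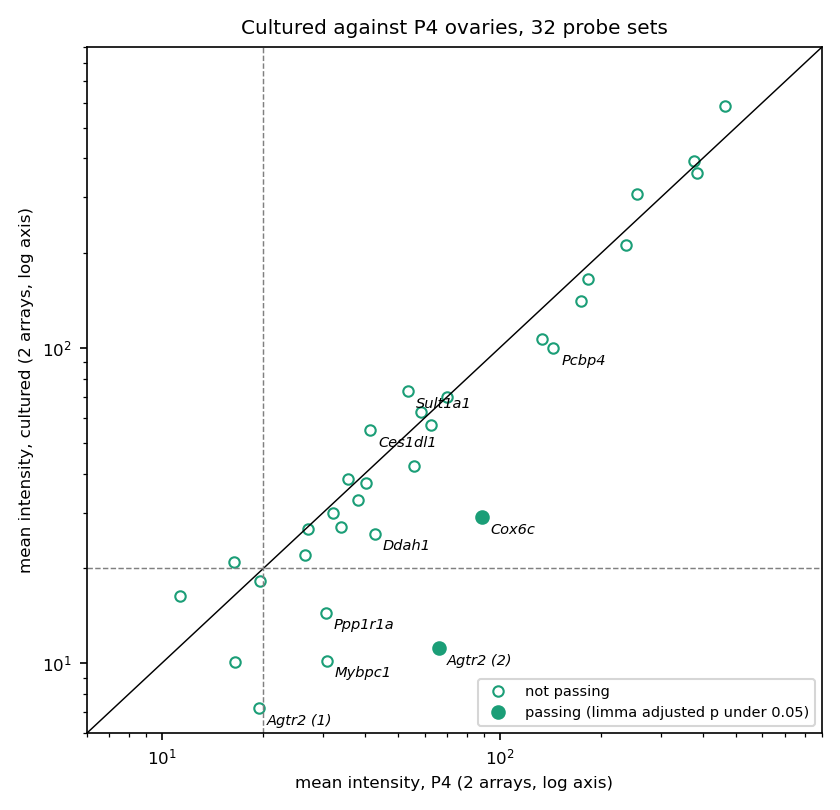
Mean intensity of the 32 probe sets in cultured (vertical) and P4 ovaries (horizontal), each over 2 arrays on log axes, with the line of equality and dashed lines at the highest control reading of 20. Filled points, Cox6c and the brighter Agtr2 probe set, passed the limma test, and most of the others lie close to the line.

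Of the 30 genes, 13 had a further 23 probe sets on the array that the rule did not take, which is a second reading of the same RNA and not a further replicate. Some read like the chosen probe set. Ppp1r1a read 53.5 and 63.4 in culture and 81.3 and 94.3 at P4, against 178.5 and 135.1 at P0, on the companion probe set of the same sequence record. Sult1a1 was 1.98-fold lower in culture and 2.51-fold lower at P4 on its companion, and Fbp2 1.73-fold and 1.86-fold lower. A pair of further Fgfr2 probe sets were 2.93-fold and 2.32-fold lower in culture and 2.10-fold and 1.81-fold lower at P4, whereas another overlapped between groups.

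Others did not. A second Cox6c probe set read 68.7 and 54.2 in culture and 69.7 and 59.3 at P4, against 74.5 and 90.1 at P0, and its log2 change between cultured and P4 ovaries was -0.07 (SE 0.24, limma adjusted p = 0.944). Cox6c thus passed on 1 of its 2 probe sets. The brightest Hnrnpa1 probe set read 990.0 and 898.8 in culture and 1267.5 and 1156.0 at P4, against 1350.7 and 1324.7 at P0, only 1.11-fold lower at P4, and a pair of dimmer ones overlapped between all groups. Cryab read 42.2 and 48.2 in culture and 68.5 and 60.8 at P4, against 87.2 and 46.1 at P0, on its other probe set, and P2rx2 was 1.23-fold and 1.24-fold lower at P4 on its brightest ones. Another Sds probe set read 10.4 and 18.7 in culture and 17.6 and 53.5 at P4, against 23.2 and 25.4 at P0. Another Lrp2 probe set read 16.0 and 21.5 in culture and 8.9 and 9.9 at P4, against 26.8 and 20.1 at P0. A further Lrp2 probe set had both P0 arrays highest. The further probe sets of Cnga1 and Pde4c read under 20 on every array. Altogether 13 of the 23 had a lower P0 array of at least 40, and in 10 of these 13 both P0 arrays read above all 4 others. The share of all probe sets at that level with the same order was not computed, so nothing is drawn from this count. For some of the 10 the margin was small, with a ratio of 1.05 for the brightest Hnrnpa1 probe set and 1.07 for the second Cox6c one.

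**Figure D4:**
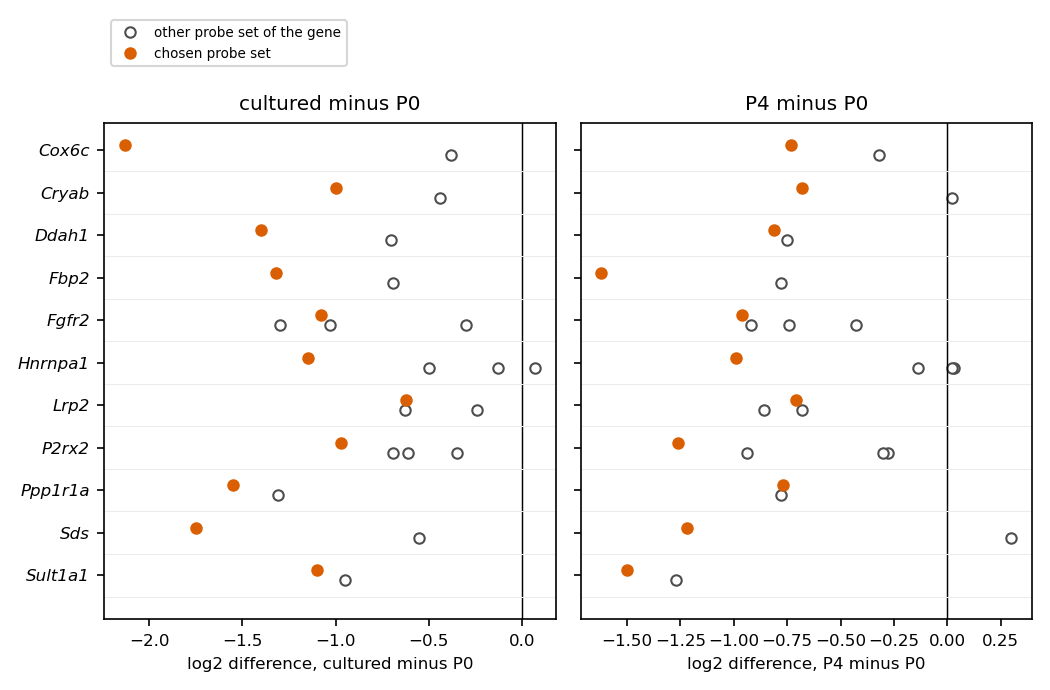
Log2 differences from P0, on log2(intensity + 7.7), of cultured (left) and P4 ovaries (right) for the chosen probe set (filled) and the other tested probe sets (open) of 11 genes. The open points of Hnrnpa1 and Cryab lie at or near 0 for P4, and that of Ppp1r1a near its filled point. For Fgfr2, 2 open points lie near the filled one and another, at -0.43 for P4, lies nearer 0.

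Lists of cell type markers and pathways were set beside the members. Krt19 belongs to a list of surface epithelium, tube and duct genes, of which 11 others were tested. Unlike Krt19, the partner keratins of simple epithelia were higher in culture. Krt18 read 337.0 and 388.8 in culture and 36.9 and 79.4 at P4, against 82.1 and 63.5 at P0, and rose against both (log2 change 2.57 against P4, limma adjusted p = 0.00214, and 2.21 against P0, limma adjusted p = 0.00469). Krt8 read 260.5 and 274.4 in culture and 86.7 and 95.3 at P4, against 145.3 and 129.9 at P0. It rose against P4 (log2 change 1.48, limma adjusted p = 0.00456) and against P0 (log2 change 0.92, limma adjusted p = 0.0323). The Krt8 call against P0 ended without any single P0 or cultured array, and that of Krt18 ended without cultured replicate 2. With all arrays the Krt8 call against P0 also ended without the variance trend of the fit (limma adjusted p = 0.0513). Of the 11, 3 rose and none fell in culture against P0, where 5.43% of all probe sets were called (3.48% higher and 1.95% lower), and 3 rose and none fell against P4. Between P4 and P0, where 1.08% of all were called (0.85% higher and 0.229% lower), 1 rose and 1 fell, or 2 and 1 with the replicate number as a block. Clu, the secreted chaperone clusterin, rose (log2 change 1.56, limma adjusted p = 0.00827, or 0.0635 without P4 replicate 1). Tspan8, an epithelial tetraspanin, fell (log2 change -1.85, limma adjusted p = 0.00568).

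Tpsab1 was read beside 10 other mast cell genes. Of the 6 that could be tested none passed in any comparison, and with the replicate number as a block 2 were lower at P4 than at P0. Cma1, mast cell chymase, read 165.5 and 46.9 in culture and 155.4 and 150.9 at P4, against 208.0 and 479.1 at P0. Cpa3, the mast cell carboxypeptidase, read 127.8 and 41.9 in culture and 93.9 and 99.7 at P4, against 145.9 and 213.2 at P0. Other tested genes of the list went differently. The protease gene Mcpt1 read 99.7 and 63.8 in culture and 28.5 and 26.4 at P4, against 57.5 and 96.1 at P0. Tpsb2 and Kit also overlapped between cultured and P0 ovaries, and Kit was higher at P4 (84.3 and 147.3) than at P0 (72.9 and 79.6). The sum over the 10 genes was 753.2 and 458.3 in culture and 618.0 and 691.0 at P4, against 746.1 and 1242.5 at P0, so cultured and P0 ovaries overlapped, and Mcpt4, Ms4a2 and Hdc read under 20 on every array.

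**Figure D5:**
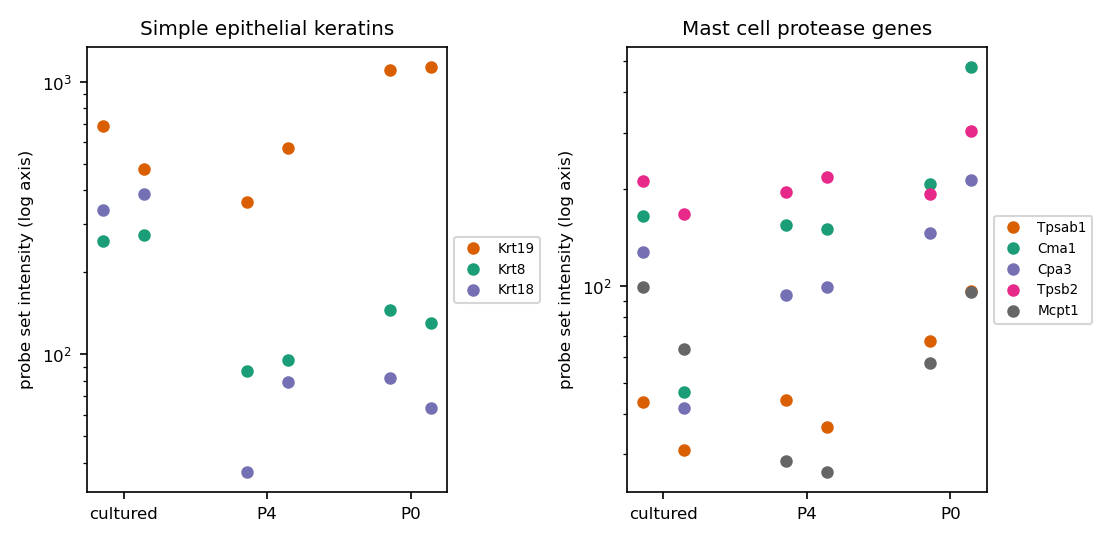
Intensity on each array, on log axes, of the simple epithelial keratins Krt19, Krt8 and Krt18 (left) and of 5 mast cell protease genes including Tpsab1 (right), with the 2 arrays of cultured, P4 and P0 ovaries side by side. Krt19 is highest at P0, whereas Krt8 and Krt18 are highest in culture.

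Ptn was read beside 9 other tested regulators of fetal growth. Of these, 2 fell and none rose in culture against P0, 1 fell against P4 and none passed between P4 and P0, where 2 were lower with the replicate number as a block. Fst, the activin-binding follistatin, read 316.9 and 259.0 in culture and 560.3 and 407.1 at P4, against 1010.6 and 813.9 at P0 (log2 change -1.64 for culture against P0, limma adjusted p = 0.00407, or 0.0636 without cultured replicate 2), and its ratio of 1.45 put it just outside the chosen set. Igfbp2, an insulin-like growth factor binding protein, also fell in culture against P0 (log2 change -1.01, limma adjusted p = 0.045). That call ended whenever a single P0 or cultured array was left out. With all arrays it also ended without the filter on dim signals, with quantile normalization and without the variance trend of the fit (limma adjusted p = 0.065, 0.057 and 0.0896). Gpc3, a glypican that restrains fetal growth, fell in culture against P4 (log2 change -1.39, limma adjusted p = 0.0327). Its call ended without either P4 array or cultured replicate 2. With all arrays it also ended without the filter and without the variance trend (limma adjusted p = 0.0613 and 0.0839). The median of the 9 genes was -0.84 for culture and -0.18 for P4 against P0, where the medians over all 3635 named genes tested were -0.05 and -0.04.

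Hnrnpa1 was read beside 11 other genes of RNA binding, splicing and translation. None passed between P4 and P0 or between cultured and P4 ovaries. In culture against P0, 1 fell, the elongation factor Eef1a1 (log2 change -0.60, limma adjusted p = 0.0494, or 0.408 with quantile normalization, and 0.249 at most without 1 array). Their median log2 change was -0.28 in culture and -0.03 at P4 against P0. Of 11 tested genes of the Wnt, Notch and hedgehog pathways, to which Axin2 is related, none passed in any of the 3 comparisons, with medians of -0.27 in culture and -0.13 at P4 against P0.

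Summed over 11 marker lists, members left out, both P0 arrays lay above all 4 others for 4 lists: erythroid, endothelial, skeletal muscle and meiotic prophase genes. Sycp1 and Sycp3 in the meiotic sum and Egfl7 in the endothelial sum had met the level and the ratio and were set aside by name. The place of P0 in those sums was thus partly fixed by the rule. The remaining meiotic gene, Sycp2, read 38.4 and 46.6 in culture and 51.8 and 56.0 at P4, against 120.6 and 56.6 at P0. The sum of 8 erythroid genes was 288.3 and 261.6 in culture and 4527.9 and 3444.0 at P4, against 6118.7 and 6289.1 at P0. Most of it at P0 and P4 came from the globin genes Hbb and Hbb-b1, at 3738.1 and 2049.6 on P0 replicate 1. Their probe sets are of the kind that matches a sequence family. Alas2 and Hbe1 were also highest at P0, whereas Slc4a1, Gata1 and Hbe2 overlapped between P4 and P0. The sum of 10 endothelial genes was 391.7 and 537.6 in culture and 493.9 and 646.6 at P4, against 793.7 and 901.2 at P0. The erythroid sum was lowest in culture, and the endothelial sums of cultured and P4 ovaries overlapped.

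The skeletal muscle sum, which bears on Mybpc1, was 335.2 and 335.9 in culture and 437.4 and 446.3 at P4, against 465.7 and 457.8 at P0, over 13 genes. Of these, 6 read under 20 on every array, among them the muscle actin Acta1 and the muscle regulators Myog and Myod1. The embryonic myosin Myh3, singled out after its values were seen, read 135.2 and 116.2 in culture and 188.9 and 180.4 at P4, against 238.7 and 218.1 at P0. Without it the sum of the other 12 was 200.0 and 219.7 in culture and 248.5 and 265.9 at P4, against 227.0 and 239.7 at P0, so that P0 no longer lay above P4. The sum of 15 liver and plasma protein genes, beside which Apoc1 and Sds may be read, was 454.3 and 828.8 in culture and 460.7 and 475.1 at P4, against 630.8 and 780.1 at P0, with overlap between cultured and P0 ovaries. The sum of 12 macrophage and leukocyte genes went the other way in culture, at 4885.2 and 2672.8 in culture and 446.5 and 540.8 at P4, against 665.4 and 800.0 at P0. Its largest parts in culture were Lyz2, at 2267.0 and 955.7, and Lgals3, at 831.7 and 641.0. Of 10 tested, 7 were called higher in culture than at P0, where 3.48% of all probe sets were, and some of these calls ended on leaving out 1 array. C1qc and Ptprc overlapped between cultured and P0 ovaries. The part of any of these cell types in the members' values was not tested.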

How the data were processed

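Intensity values are those of the deposited table: linear probe set intensities that the authors had scaled to one level per array, since the mean left after trimming 2% at each end was 125.2 on all 6 arrays. Which algorithm summarised the probes is not stated, and detection calls were not used. Labels gave the groups, replicate numbers and, per the labels, chip ID batches. Symbols came from the platform annotation, checked by gene number in RefSeq's table for GRCr8, with no member's symbol changed: 7018 probe sets had 1 symbol, 308 several and 1473 none.

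Before taking log2, 7.7 was added as a pseudocount (20% of the table's values lie below it). After 59 control probe sets were left out, the 30% of the others with the lowest mean log2 value (2622) were dropped and 6118 tested. One model with 3 group means was fitted with limma 3.58.1 in R 4.3.3 (variance trend, 3 residual and 6.451 prior degrees of freedom). With 2 arrays a group the smallest exact permutation p is 0.33, so no such test was made. On simulated data of 6118 probe sets the fit of cultured against P4 recovered 56.9% of changes of 1 and 100.0% of changes of 2 on the log2 scale, with 15 unchanged probe sets called. The simulated noise was independent between arrays and held no chip batches, so these rates need not hold for the real arrays. Same-numbered P4 and P0 arrays share a chip batch, and their deviations from group means correlated at 0.33. With that number as a block, 314 probe sets were called between P4 and P0, against 66 without.

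The floor of 20 is the highest reading of 23 control probe sets. Lists were counted on the brightest tested probe set of each gene, without members. Values were given for the 12 members of largest ratio, for those that passed, for list members and for those nearest the threshold, and then for every other member too. The further probe sets of the same genes were given in part. The members, lists and tests were chosen with earlier results of these data known. Alternatives were other pseudocounts, filters and normalizations, no variance trend, a replicate block and leaving out each array.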

Additional observations from a re-analysis of the deposited data

How the results depend on the processing

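Only 2 of the 32 members passed between cultured and P4 ovaries, and that count was 1 without the filter on dim probe sets and 1 with quantile normalization (Cox6c in both), 3 without the variance trend (with Mybpc1 added) and 0 to 2 on leaving out 1 array. The 2 calls held with pseudocounts of 1 and 32, at a filter at the 50th percentile and with the replicate block. The median log2 change of the members was -0.14 to -0.11 under these alternatives and -0.28 to 0.04 on leaving out 1 array, with the value above 0 coming without cultured replicate 2. The number of probe sets called over the whole table moved more. For P4 against P0 it was 23 without the filter, 29 without the variance trend, 314 with the replicate block and 15 to 55 on leaving out 1 array. For cultured against P0 it was 566 with the replicate block and 90 to 353 on leaving out 1 array. For cultured against P4 it was 86 to 193. The replicate number pairs no cultured array (deviations correlated at -0.135 with P0 and -0.0537 with P4), so its block there is only a number. With it, the mast cell genes had 2 lower in culture against P0 and 1 higher against P4, the fetal growth regulators 5 lower against P0, and the epithelial genes 3 higher and 1 lower against P0. The choice of members also depends on its limits: 73 probe sets met a ratio of 1.3, 42 met a P0 minimum of 20, 18 met one of 80, and 38 to 117 met the rule with 1 array left out, which makes it less strict.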

Other observations

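Applied with each group in turn as the bright one, the level and the ratio of 1.5 were met by 131 single-symbol probe sets for cultured ovaries, 13 for P4 ovaries and 39 for P0 ovaries, before any was set aside by name. A further 10 probe sets without a single symbol met both for P0. They are not named here.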
